A study of Mus musculus with 12 samples.

Results

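A set of 151 circular RNAs (circRNAs) from genes of the nuclear receptors and of the proteins that work with them is described here. The livers are those of mice given carbon tetrachloride, a toxin used to produce fibrosis. Members were chosen by the position of their back-splice junction and the symbol of the gene around it. A circRNA belonged when it lay inside a protein-coding gene of the GENCODE M21 annotation, touched an exon boundary of that gene at 1 end or at both, and the gene's symbol was that of a nuclear receptor (Nr symbols, Ppar, Rxr, Rar, Ror, Thr, Esr), a co-regulator (Ncoa, Ncor, Med) or one of a few hepatocyte transcription factors such as Hnf4a. The rule matched 92 genes, of which 38 had at least 1 circRNA, and the 151 members were 0.918% of the 16445 circRNAs listed. It reads the start of a symbol, so it also took in Ppargc1a, a coactivator of Pparg, and matched Esrp1, Esrp2 and Nr2c2ap, which are not receptors and had no circRNA.

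The study measured circRNAs in whole livers of 12 mice, whose strain is labelled C57BL/8 and whose age is not given. The 6 PZH mice had 10% carbon tetrachloride (CCl4, a toxin that injures hepatocytes and is used to produce fibrosis) at 10 µl per 10 g of body weight, 2 times a week for 8 weeks, and were given Pien Tze Huang, abbreviated PZH, a medicine of Chinese tradition, every day in weeks 2 to 8 (25 mg/ml). The 6 Control mice had the same CCl4 without PZH. All 12 mice therefore had the CCl4 course, and how fibrotic each liver was is not given in the values used here. Livers without CCl4 were not analysed here, and a difference between the groups is one between CCl4 plus PZH and CCl4. Of 11 hepatocyte marker genes, 6 had circRNAs in the table (among them Alb, Apob and Cps1) and 5 had none.

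Nuclear receptors are transcription factors that bind DNA through a pair of zinc fingers and, in many cases, change their activity when a small molecule fills a pocket near their C-terminus. In liver they set bile acid, cholesterol, fat and drug metabolism: Nr1h4 is the bile acid receptor FXR, Ppara drives fatty acid oxidation, Thrb is a thyroid hormone receptor and Rxra is the shared partner of many of them. Ligand-bound receptors recruit coactivators such as Ncoa1 to Ncoa3 through short LXXLL motifs and contact RNA polymerase II through the Mediator complex, while receptors without activating ligand can recruit corepressors such as Ncor1. A circRNA forms by back-splicing, which joins the tail of an exon to the head of that exon or of one upstream. The read that crosses this junction identifies the circle, and the messenger RNA of the gene does not hold that sequence.

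The junctions of the circles on which the results turn are printed first, since each is the sequence that was counted. In each line the lower-case letters are the last 15 bases of the last exon, the capitals are the first 15 bases of the first exon, and both are read 5′ to 3′ on the gene's strand from GENCODE M21 transcripts (assembly GRCm38). The leading circles of the receptors and co-regulators come first, then Med15, and then 2 rare receptor circles whose capitals can be set beside those of Nr1h4 and of the second Thrb circle.
Thrb exon 4: agaagaaatgtaaagAAAATGGCCTTCCAG
Thrb exons 6 to 7: aagcggaaattcctgGGCTTCTTTAGAAGA
Nr1h4 exons 4 to 8: gaattcgaaagagtgGTTTCTTCCGAAGAA
Nr1h4 exons 3 to 8: gaattcgaaagagtgGTATGCTAACAGAAC
Ncoa2 exons 2 to 4: agatcaaagagcaagATTTTCCTCGCATCT
Ncoa2 exons 3 to 4: agatcaaagagcaagTTGCTGATATGTGTT
Med13l exon 2: atcatgaactgcaggGCTGAACTCACAGGA
Ncor1 exons 2 to 3: cccgggttctgacagGTTGCTTCCTAGAAA
Med15 exons 2 to 4: aagcttctgtcagtgTGAGGATGCCATGAG
Ppara exons 5 to 6: accagcaacaacccgGGCTTCTTTCGGCGA
Rora exons 3 to 4: ccatggcagaactagGGCTTTTTCAGGAGA

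The Thrb circles lie at chr14:17963061-17963321 and chr14:18008569-18011270, both on the plus strand. The Nr1h4 circles end together and lie at chr10:89473752-89483524 and chr10:89473752-89498417 on the minus strand, and the Ncoa2 circles, also on the minus strand, at chr1:13221307-13286025 and chr1:13221307-13224713. Med13l exon 2 is chr5:118593333-118593570 (plus), Ncor1 exons 2 to 3 are chr11:62433563-62438515 (minus) and Med15 exons 2 to 4 are chr16:17683159-17697694 (minus). The rare circles are chr15:85788979-85791042 for Ppara and chr9:69361739-69364561 for Rora, both plus. Which exons a circle holds between its ends was not measured, since the values come from junction reads, and spans below are those of the annotated exons.

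The values are a signal that the authors' table names SRPBM, a name used for junction reads scaled to the reads of a library, and its formula is not stated. Levels of different circles are set side by side without a correction for length, on the reading that each value counts 1 junction. The libraries held 92559 to 129699 read-pair equivalents (SRPBM divided by the apparent value of 1 read pair) in PZH livers and 80442 to 130487 in Control livers. That value was assumed to lie below a library's smallest entry, as 0.340 SRPBM beside 0.680 SRPBM in PZH replicate 1. All read-pair equivalents given here scale with this assumption. Members above 0 numbered 37 to 61 per library in PZH livers and 32 to 48 in Control livers. An entry of 0 is given as listed at 0 and does not show that a circle was missing, since abundant circRNAs also had such entries. The labels describe separate mice, and in whole tissue fewer cells of a type and less RNA per cell cannot be told apart.

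The signal of the module was concentrated in a few circles. The 6 most abundant members carried 78.8% of the summed member signal over the 12 libraries, whereas 70 of the 151 were above 0 in a single library, 39 of them in a PZH library and 31 in a Control library. Only 9 members were above 0 in all 12 libraries. The proportions were similar over all 16445 circRNAs listed, of which 7262 were above 0 in a single library and 1089 in all 12. The 57 receptor circles carried 49.6% of the signal, the 28 coactivator circles 27.9%, the 29 Mediator circles 19.2% and the 33 corepressor circles 3.14%. A total of 29 members were above 0 in at least 6 libraries and could be tested, and these carried 94.8% of the signal.

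The leading receptor circle was exon 4 of Thrb, at 128, 133 and 165 SRPBM (lowest, median and highest) in PZH livers and 108, 137 and 179 SRPBM in Control livers. The ranges overlapped over most of their length. Its means were 141 ± 16.3 SRPBM in PZH livers and 138 ± 24.0 SRPBM in Control livers (SD, n = 6 each), a log2 fold change of 0.04 with a 95% interval of -0.20 to 0.29 that turned to -0.20 under quantile normalization. A second Thrb circle (exons 6 to 7) ranged over 33.0, 43.3 and 56.5 SRPBM in PZH livers and 28.1, 41.6 and 57.8 SRPBM in Control livers. Here too the groups overlapped, and the log2 fold change was 0.09 (-0.26 to 0.45). The rarer Thrb circle of exons 5 to 7 was above 0 in 2 PZH livers, at 1.33 and 4.88 SRPBM, and in 5 Control livers, up to 2.20 SRPBM, with a log2 fold change of -0.64 that did not pass. Thrb had the highest summed signal of the 38 host genes, 190 ± 19.1 SRPBM in PZH livers and 186 ± 33.6 SRPBM in Control livers.

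The bile acid receptor Nr1h4 had 1 dominant circle, of exons 4 to 8. It was at 103, 109 and 139 SRPBM in PZH livers and at 85.5, 102 and 143 SRPBM in Control livers, with overlapping groups. The means were 116 ± 15.6 SRPBM in PZH livers and 109 ± 23.6 SRPBM in Control livers, a log2 fold change of 0.10 (-0.18 to 0.38) that turned to -0.0188 under quantile normalization. The circle of exons 3 to 8, which has the same end and begins an exon earlier, was at 0.621, 3.36 and 5.35 SRPBM in PZH livers, while 5 of 6 Control livers were above 0 and the highest was 3.42 SRPBM. Its log2 fold change was 0.74 (-0.54 to 2.02), which did not pass. The shorter circle that begins at exon 6 had signal in 4 PZH livers and in 5 Control livers, up to 4.14 SRPBM in PZH livers and 5.87 SRPBM in Control livers, with a log2 fold change of -0.58 that did not pass either. Exons 2 to 8, which take in the start codon, had signal in 3 PZH livers, up to 3.02 SRPBM, and in 4 Control livers, up to 2.34 SRPBM.

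Other receptors were far lower. Ppara, through its circle of exons 4 to 6, was above 0 in 4 of 6 PZH livers, at up to 8.17 SRPBM, and in all 6 Control livers, between 0.664 and 5.30 SRPBM. The circle of exons 6 to 7 of Nr5a2, the receptor LRH-1 that takes part in bile acid synthesis, was above 0 in 5 livers of each group, at up to 6.15 SRPBM in PZH livers and 3.01 SRPBM in Control livers. Nr2c2, the orphan receptor TR4, had a circle of exons 3 to 5 above 0 in 4 livers of each group, at up to 4.34 SRPBM in PZH livers and 3.84 SRPBM in Control livers. Groups overlapped for all of them, and their log2 fold changes were -0.43, 0.42 and -0.25 in that order, none past the threshold. The value for Ppara, whose means were 3.04 SRPBM in PZH livers and 3.08 SRPBM in Control livers, turned to 0.55 with zeros treated as missing, and lay between -0.80 and -0.04 when 1 library was left out. That for Nr5a2 was between 0.07 (without Control replicate 2) and 0.86 (without PZH replicate 1), and that for Nr2c2 turned to 0.03 without PZH replicate 4 or 5. Among the receptors with no testable circle, the circles of Rxra summed to at most 2.69 SRPBM in a PZH liver and 3.94 SRPBM in a Control liver, and Hnf4a, Nr1i2 (the xenobiotic receptor PXR) and Rora each had a single circle in a single library.

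**Figure D1:**
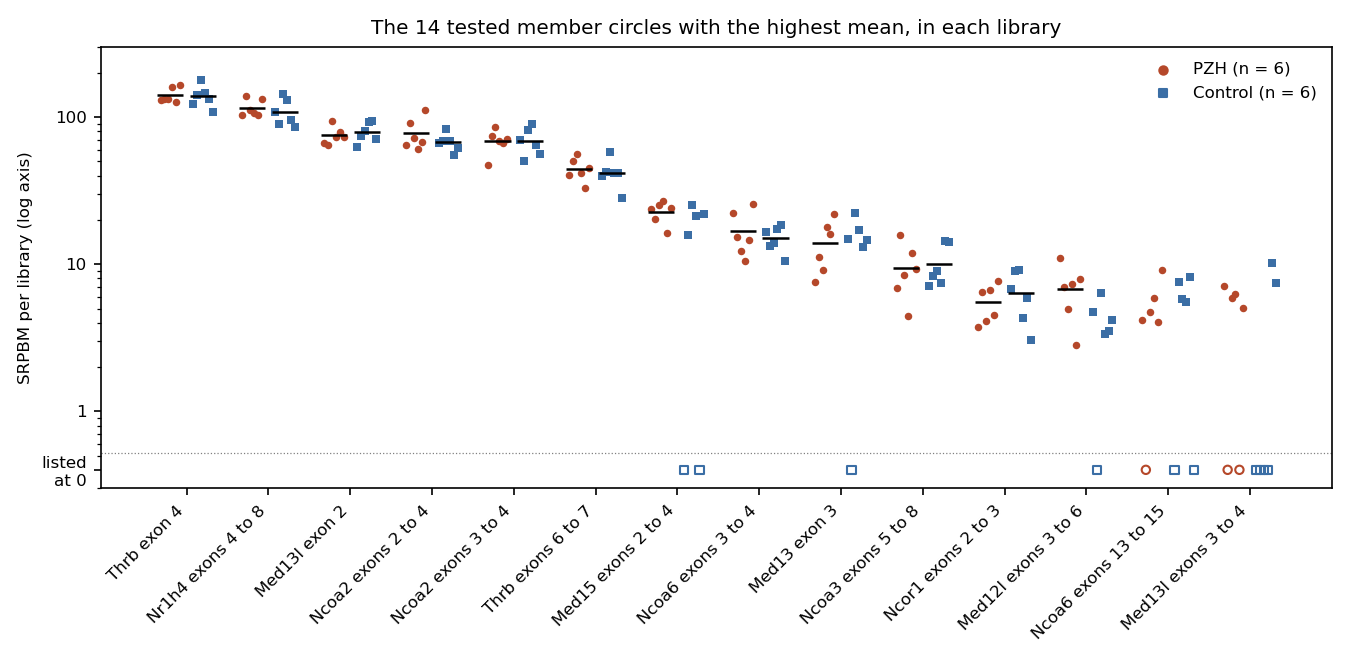
SRPBM (log axis) of the 14 tested members with the highest mean, 1 point per library, for PZH livers (red circles, n = 6) beside Control livers (blue squares, n = 6). Open symbols under the dotted line are entries listed at 0, and a black bar is a group's mean, drawn only for a group with no such entry. PZH and Control points overlap for every circle shown, and Med15 is listed at 0 in 2 Control livers and in no PZH liver.

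Among the coactivators, Ncoa2 (TIF2, a p160 coactivator) gave a pair of circles of nearly equal level. Its longer circle, exons 2 to 4, lay at 60.5, 69.8 and 112 SRPBM in PZH livers and at 54.9, 67.9 and 83.1 SRPBM in Control livers. Its shorter one, exons 3 to 4, lay at 47.0, 69.9 and 85.8 SRPBM in PZH livers and at 49.99, 67.1 and 89.4 SRPBM in Control livers. Both pairs of groups overlapped, with log2 fold changes of 0.18 (-0.13 to 0.50) and 0.01 (-0.32 to 0.35). The direction of the last one turned to -0.0407 under quantile normalization and to -0.0316 when libraries were scaled to equal summed SRPBM. A rarer circle with the same end and its other end off the annotated boundaries (chr1:13221307-13257059) was above 0 in 4 PZH livers, up to 4.52 SRPBM, and in 2 Control livers, up to 2.97 SRPBM, with a log2 fold change of 0.66 that did not pass. Ncoa6, a coactivator that binds receptors and histone methyltransferase complexes, had its leading circle of exons 3 to 4 at 10.5, 14.9 and 25.7 SRPBM in PZH livers and at 10.5, 15.3 and 18.6 SRPBM in Control livers. Ncoa3, another p160 coactivator, had exons 5 to 8 at 4.42, 8.93 and 15.8 SRPBM in PZH livers and at 7.08, 8.62 and 14.5 SRPBM in Control livers. Neither separated the groups. The longer Ncoa6 circle of exons 3 to 6 had signal in 3 PZH livers, up to 5.49 SRPBM, and in 4 Control livers, up to 7.05 SRPBM, with a log2 fold change of -0.59 that did not pass. Ncoa1 and Ppargc1a had circles in at most 3 libraries of a group.

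The corepressor Ncor1 had the most circles of any member gene, 28, of which 13 were seen in 1 library. They began at 16 different exons, and the circle of exons 2 to 3 held 32.5% of the gene's signal. That circle was at 3.74, 5.48 and 7.67 SRPBM in PZH livers and at 3.08, 6.36 and 9.15 SRPBM in Control livers. The groups overlapped, with a log2 fold change of -0.15 (-0.91 to 0.61). Summed over its circles, Ncor1 had 20.1 ± 10.1 SRPBM in PZH livers and 16.6 ± 4.97 SRPBM in Control livers.

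Mediator circles came mainly from subunits of the CDK8 kinase module and from Med15, a subunit of the tail that activators contact. Exon 2 of Med13l, a paralogue of the kinase module subunit Med13, was at 64.3, 73.0 and 94.6 SRPBM in PZH livers and at 62.8, 77.3 and 94.7 SRPBM in Control livers, and its log2 fold change was -0.07 (-0.35 to 0.20). The neighbouring Med13l circle of exons 3 to 4 had signal in 4 PZH livers, up to 7.16 SRPBM, and in 2 Control livers, up to 10.2 SRPBM, with a log2 fold change of 0.97 that did not pass. Exon 3 of Med13 itself was between 7.59 and 21.9 SRPBM in the 6 PZH livers and between 13.2 and 22.3 SRPBM in 5 Control livers, and was listed at 0 in the other. The circle of exons 3 to 6 of Med12l, a paralogue of the kinase module subunit Med12, was between 2.83 and 11.0 SRPBM in PZH livers, whereas 5 Control livers were above 0 and the highest was 6.34 SRPBM. Its log2 fold change of 0.99 (-0.11 to 2.10, adjusted p = 0.686, limma) did not pass, and it was 0.50 without Control replicate 2, the library listed at 0.

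Med15 exons 2 to 4 had the smallest p of the members and did not pass the test after adjustment. The 6 PZH livers were between 16.3 and 26.9 SRPBM, while 4 Control livers were between 15.8 and 25.3 SRPBM and the other 2, replicates 1 and 5, were listed at 0. Where both groups were above 0 their ranges overlapped almost fully. The log2 fold change of 1.80 (SE 0.77) had an unadjusted p of 0.0304 and an adjusted p of 0.603 (limma, Benjamini-Hochberg over 3870 circRNAs). Without Control replicate 1, or without Control replicate 5, it was 1.12, and with zeros treated as missing it was 0.10. With no filter on low circRNAs the same fold change of 1.80 passed (adjusted p = 0.00413, limma), and over all alternatives the adjusted p ranged from 0.00413 to 0.919.

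No member passed the test across all circRNAs (limma on log2(SRPBM + 0.636), 2-sided, adjusted p under 0.05), where 2 of 3870 circRNAs passed, which is 0.0517%. At an unadjusted p under 0.05 the members numbered 1 of 29, Med15, against 7.55% of all circRNAs tested, and 4.55% of them were higher in PZH livers at that threshold. An exact rank-sum test gave 0 members and 0 circRNAs past adjustment, and 0 members at an unadjusted p under 0.05. The smallest p this test can give with these group sizes is 0.00216, reached only where the groups do not overlap. Only 26 of 3870 circRNAs had such groups, too few for that p to pass adjustment. The rank-sum result after adjustment therefore cannot show that the groups were alike. No tested member had groups that did not overlap, against 0.672% of all tested. Of the 29 members, 19 had a log2 fold change above 0 and 10 below, where 54.3% of all tested lay above 0, and their median was 0.10 beside 0.06 over all. By role, 7 of 13 receptor circles were above 0 (median 0.04), 5 of 7 coactivator circles (0.10), 3 of 4 corepressor circles (0.22) and 4 of 5 Mediator circles (0.97). The Mediator median is the value of Med13l exons 3 to 4, which had signal in only 4 PZH and 2 Control livers. The most abundant Mediator circle, Med13l exon 2, was at -0.07.

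**Figure D2:**
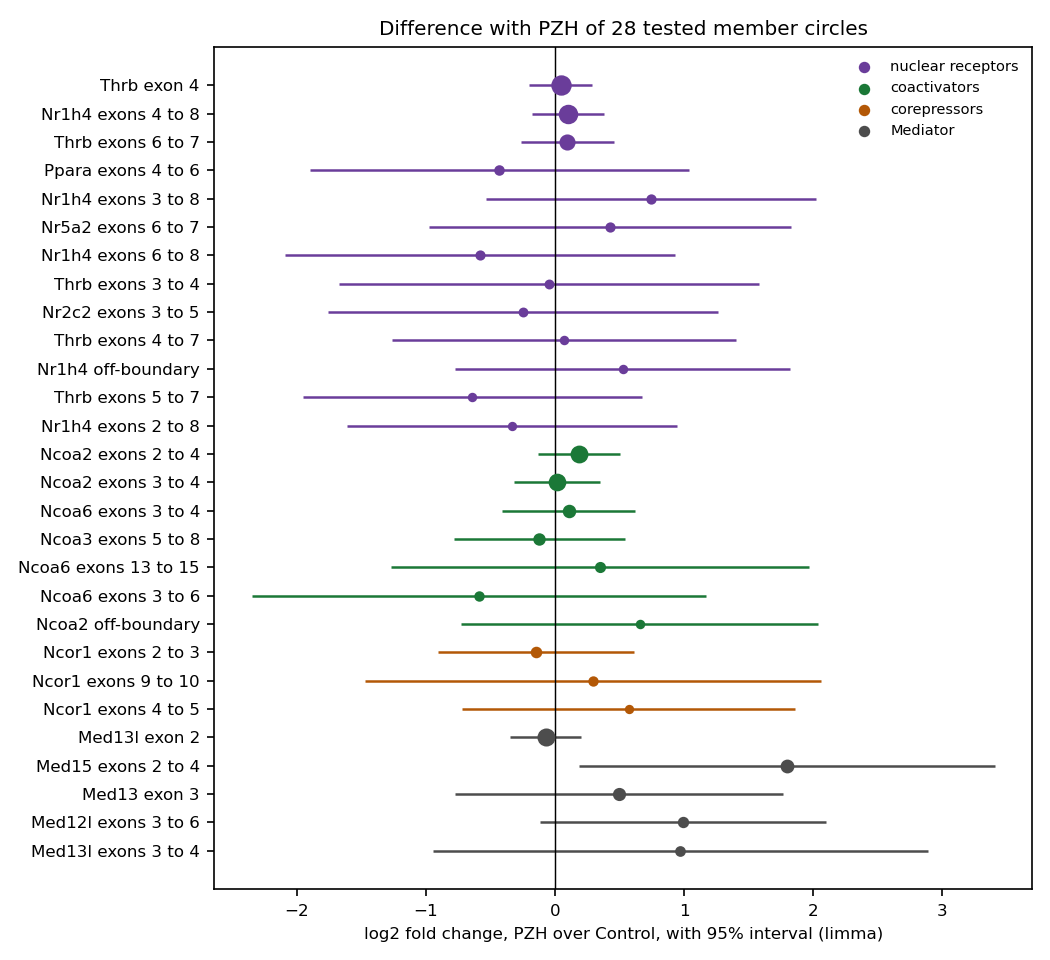
Log2 fold change, PZH over Control, of 28 of the 29 tested members with its 95% interval from limma, grouped by role and ordered by mean within a role, with larger points for more abundant circles. The intervals of the 6 most abundant circles lie within 0.5 of 0, such as -0.20 to 0.29 for Thrb exon 4. Those of rare circles span several units, and only that of Med15 leaves out 0, before adjustment.

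The abundant circles set the narrowest bounds. For the 9 members above 0 in all 12 libraries the fitted fold changes lay between -0.15 and 0.18 on the log2 scale, 6 of them above 0, beside 54.9% of the 1089 circRNAs above 0 in every library. As ratios, the 95% intervals were 0.869 to 1.22 for Thrb exon 4, 0.883 to 1.30 for Nr1h4 exons 4 to 8 and 0.786 to 1.15 for Med13l exon 2. These circles had 434, 350 and 240 read-pair equivalents per library on average, against 56.5 for Med15.

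The 122 untested members had means of at most 1.18 SRPBM and no value above 5.28 SRPBM. Of these, 62 were above 0 in more PZH than Control livers, 41 in fewer and 19 in as many, which is 50.8%, 33.6% and 15.6%. Over all 12575 untested circRNAs the shares were 45.8%, 41.4% and 12.8%, and PZH libraries had 4439 to 5510 circRNAs above 0 and Control libraries 3735 to 5500. None was above 0 in at least 5 livers of a group and at most 1 of the other, a pattern that 0.274% of all circRNAs showed toward PZH and 0.152% toward Control.

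Summed over all circles of a gene, 15 member genes could be tested and none passed. Over all 2205 host genes tested the number called was also 0, or 0%. At an unadjusted p under 0.05 there was 1 member gene, Med15 (adjusted p = 0.539, limma), against 8.21% of all host genes. Fold changes were above 0 for 11 and below 0 for 4, where 54.8% of all lay above 0, with a median of 0.16 for member genes and 0.06 for all. Among the genes above 0 the smallest p belonged to Med15 (log2 fold change 1.86), Med12l (1.15) and Ncoa2 (0.15), and among those below 0 to Ppara (-0.29), Ncoa3 (-0.08) and Med13l (-0.02), of which the last 3 turned direction when single libraries were left out. The Med12l sum was 0.64 without Control replicate 2. Ncoa2 summed to 154 ± 29.7 SRPBM in PZH livers and 138 ± 20.8 SRPBM in Control livers, and Nr1h4 to 124 ± 17.3 SRPBM in PZH livers and 117 ± 21.9 SRPBM in Control livers. The 151 members together summed to 676 ± 83.4 SRPBM in PZH livers and 630 ± 100.4 SRPBM in Control livers, and were 1.86% ± 0.0596 of a PZH library's signal and 1.79% ± 0.154 of a Control library's.

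No difference was called in how a gene divided its signal among its circles. For the 6 genes with at least 2 tested circles and signal in every library, the share held by the leading circle was 93.5% ± 1.196 in PZH livers and 93.0% ± 3.34 in Control livers for Nr1h4, and 74.4% ± 4.56 in PZH livers and 74.6% ± 2.65 in Control livers for Thrb. For Ncoa2 it was 50.6% ± 6.43 in PZH livers and 49.2% ± 5.02 in Control livers. Exact permutation tests over all assignments of the 12 libraries, 2-sided, gave no adjusted p below 0.842 for the 6 genes.

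The receptor circles met the protein map in a pattern that the choice of members did not use. The zinc finger pair was found by its cysteine spacing in the translated transcripts of all 17 receptor genes with circles. Of the 51 receptor circles with exon numbers on 1 transcript, 25 spanned the whole pair, 12 a part and 14 none of it, but the 25 that spanned all of it carried 4.38% of the receptor signal, the 12 with a part 49.2% and the 14 with none 45.9%. These shares rest on few circles: Thrb exon 4 covers codons 8 to 95 of 461, before the fingers at codons 107 to 164, while Nr1h4 exons 4 to 8 cover codons 146 to 358 of 474 and so begin inside the fingers at codons 124 to 179.

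Circles began or ended inside the fingers at a few positions. The first exon began at codon 23 of the motif, just past the cysteines of the first finger, in 6 circles of 4 genes (Nr1h4, Thrb, Ppara and Rora), which carried 48.2% of receptor signal. In Pparg, the receptor that drives fat cell formation, 2 rare circles ended at codon 22, just before the same position. Another boundary, at codon 10, opened 1 rare circle of Nr2c1 and closed 2 of Nr2c2, which together with 1 Nr3c2 circle from codon 31 carried under 1% of receptor signal. The capitals printed above show what the exons share there: over the 4 codons after codon 23, Thrb has 10 of 12 bases equal to Nr1h4, and Ppara and Rora have 9 of 12 each. These genes belong to 1 family with a conserved DNA-binding domain and are not independent cases. Of the 6 circles, Nr1h4 exons 4 to 8 and Thrb exons 6 to 7 were above 0 in all 12 libraries and the other 4 in at most 3.

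**Figure D3:**
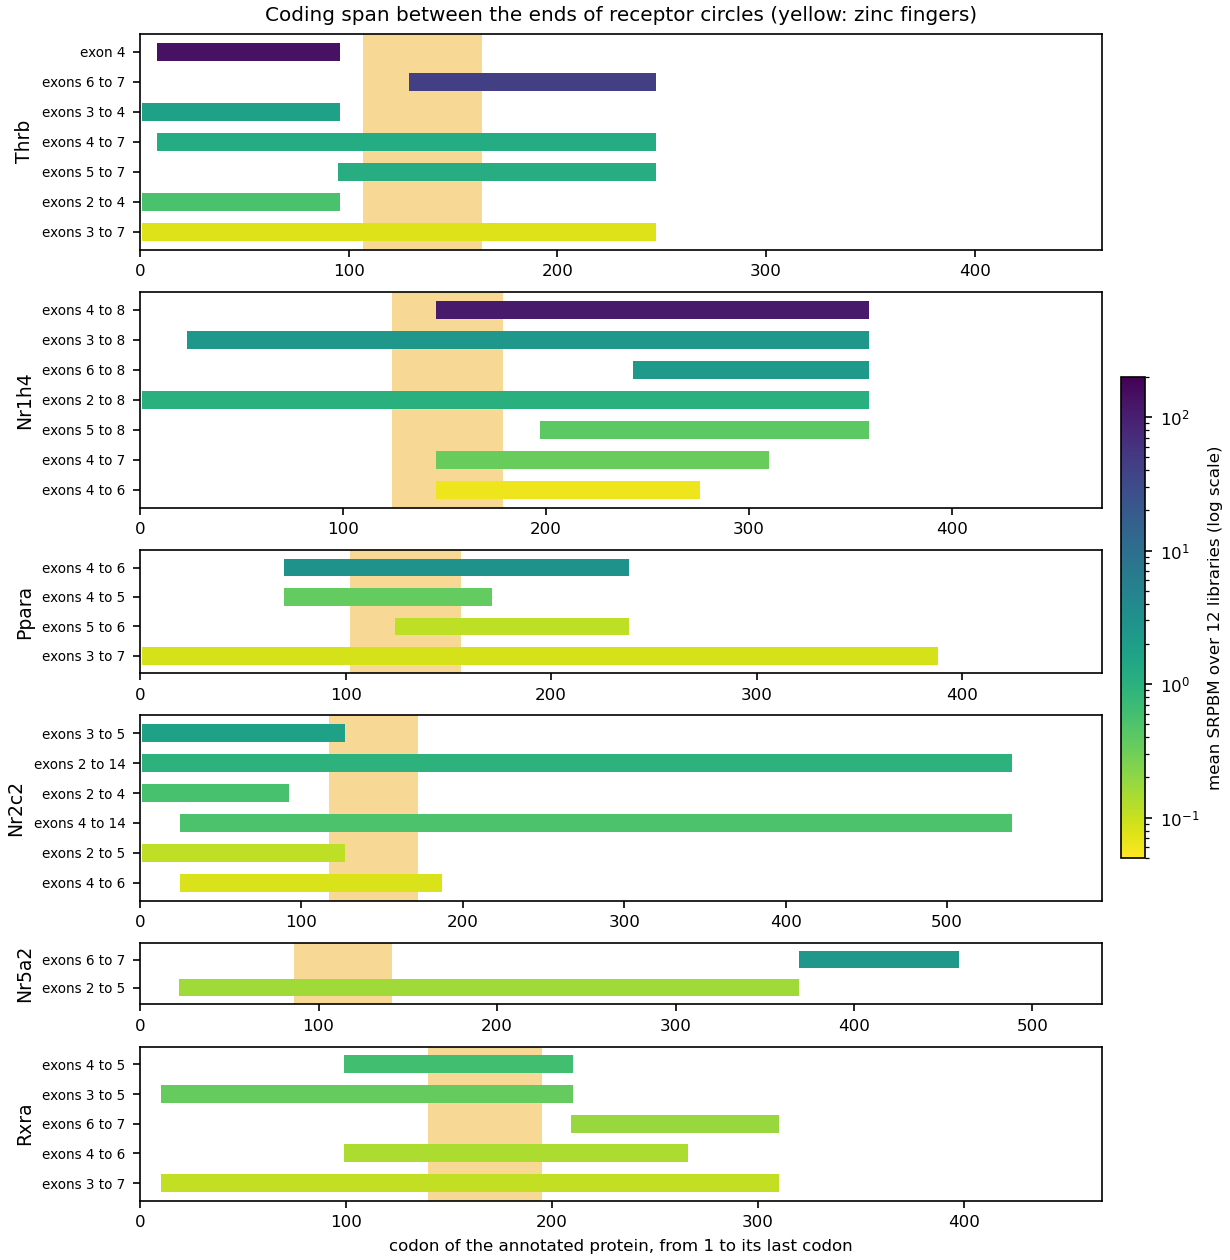
Codons of the annotated protein that lie between the ends of the circles with exon numbers of 6 receptors, 1 bar per circle, coloured by mean SRPBM over the 12 libraries on a log scale, with the zinc finger pair in yellow. The darkest bars are Thrb exon 4, before the fingers, and Nr1h4 exons 4 to 8 and Thrb exons 6 to 7, which begin inside them at codon 23 of the motif.

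Within a gene, circles often shared an end. The end of exon 8 closed 5 of the 7 numbered Nr1h4 circles, with 99.7% of their signal, and the end of exon 4 closed Ncoa2 circles with 99.2% of theirs. Thrb closed at exon 4 (3 circles, 75.7% of signal) or at exon 7 (4 circles, 24.3%). The lower-case letters printed above are accordingly the same for both Nr1h4 circles and for both Ncoa2 circles. The circles of Ncor1 were spread along the gene in number and in signal. Those of Med13 were spread in number, while 91.5% of its signal lay in circles that begin at exon 3.

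**Figure D4:**
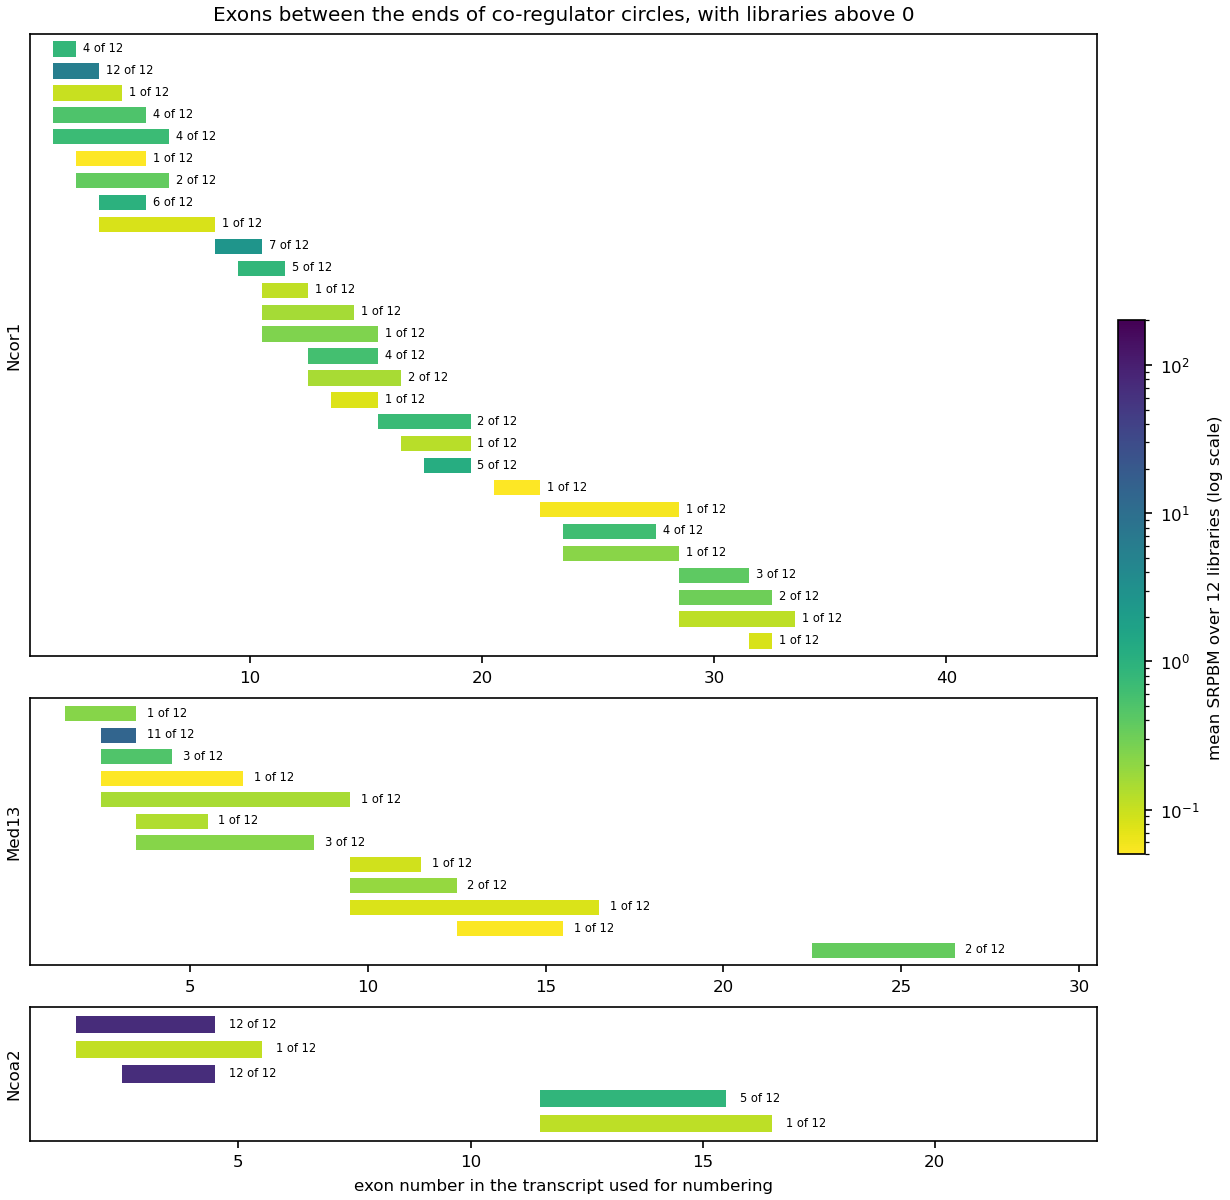
Exons between the ends of the Ncor1, Med13 and Ncoa2 circles with exon numbers, 1 bar per circle, by exon number in the transcript used and coloured by mean SRPBM over the 12 libraries on a log scale, with the number of libraries above 0 of 12. Ncor1 has 28 circles from exon 2 to exon 33, 5 of them in more than 4 libraries, whereas 2 Ncoa2 circles that end at exon 4 are dark and in all 12.

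The sequence pattern LXXLL, matched anywhere in the translated proteins, was mostly outside the co-regulator circles. Whether a match is a motif that binds receptors was not tested. Of 21 coactivator circles with coding exons, 8 spanned at least 1 LXXLL, with 6.45% of the coactivator signal, and the numbers were 3 of 32 for corepressors and 2 of 28 for Mediator. Both leading Ncoa2 circles cover the start codon and codons 1 to 87. Ncoa3 exons 5 to 8, which cover codons 87 to 272 of 1403, was the only tested circle of a co-regulator that spanned the pattern. The annotated start codon lay between the ends of 31 of 137 members with exon numbers. Coding exons alone lay between the ends of 105, and in 49 of these their summed length was a multiple of 3.

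In exon structure the members resembled the rest of the table in some features and not in others, given here without a test. The tested members had a median of 3 exons between their ends and 354 exonic bases, beside 3 exons and 389 bases for the rest of the tested circRNAs. Their flanking introns were longer, with medians of 14524 bases upstream and 15366 bases downstream beside 8541 and 7223 bases for the rest. These medians count circles, and circles that share an end share a flanking intron. The 15366 bases are the intron downstream of exon 7 of Thrb, which several tested circles share. Over all members with exon numbers, tested or not, the medians were 9713 bases upstream and 4674 bases downstream, beside 5586 and 4454 bases for the rest of the table, so the downstream difference was small there. Spans holding 5′ UTR and coding sequence made up 29.6% of tested members and 12.4% of the rest. A first exon numbered 2 was as frequent in both, 29.6% of tested members and 29.9% of the rest.

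Not all ends sat on annotated boundaries. Both ends did in 138 members and 1 end in 13, of which 6 were Ncoa2 circles. In 3 of the 13 the free end was within 5 bases of a boundary, and among them was a tested Nr1h4 circle at chr10:89473752-89478881, whose free end lies 5 bases from the start of exon 6. It had signal in 5 PZH livers and 3 Control livers. In the other 10 the distance was between 523 and 29086 bases.

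Genes that receptors act with or on gave circles of their own. Of 42 co-regulator partners outside the rule (such as Crebbp, Ep300 and histone deacetylases), 34 had circRNAs, and 28 of the 54 tested were above 0 and 26 below. None was called. Crebbp exons 4 to 5, of the acetyltransferase CBP, was at 24.1 ± 3.93 SRPBM in PZH livers and 35.5 ± 5.92 SRPBM in Control livers, a log2 fold change of -0.55 (adjusted p = 0.454, limma) that did not pass. The other partners at an unadjusted p under 0.05 were higher in PZH livers, Zmiz1 exons 2 to 6 with a log2 fold change of 0.86 and Carm1 exons 2 to 4 with 1.68 (adjusted p = 0.578 each, limma). In 5 lists of receptor target genes no circRNA was called either. The smallest adjusted p was that of Fmo5 exons 3 to 7, a drug-metabolising monooxygenase, at 34.6 ± 5.37 SRPBM in PZH livers and 20.1 ± 5.51 SRPBM in Control livers, with a log2 fold change of 0.80 (adjusted p = 0.263, limma).

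Circles of other cell types' marker genes gave the following levels beside these results. For hepatic stellate cells, 3 of 15 marker genes (Reln, Hgf and Dlc1) had circRNAs, which summed to 9.12 to 21.0 SRPBM in PZH livers and 0 to 6.13 SRPBM in Control livers. The other 12 markers, among them Lrat, Pdgfrb, Acta2 and Col1a1, had none. These sums do not overlap, and they were not tested. The groups of 0.672% of all single circRNAs tested did not overlap either, but that share is not one for sums over a list. The marker sums of the other cell types, given below, overlapped. Of the 13 stellate circRNAs 2 could be tested, both above 0, and none was called (smallest adjusted p = 0.454, limma). For macrophages, 5 of 11 genes summed to 97.5 to 138 SRPBM in PZH livers and 87.8 to 128 SRPBM in Control livers. Endothelial markers (7 of 11) summed to 2.39 to 13.5 SRPBM in PZH livers and 1.99 to 11.2 SRPBM in Control livers, cholangiocyte markers (4 of 10) to 4.50 to 15.2 SRPBM in PZH livers and 1.75 to 16.5 SRPBM in Control livers, and lymphocyte markers (3 of 10) to 0 to 53.5 SRPBM in PZH livers and 2.86 to 56.7 SRPBM in Control livers. Hepatocyte markers summed to 13.9 to 35.2 SRPBM in PZH livers and 22.3 to 49.5 SRPBM in Control livers. The part of these cell types in the members' values was not tested.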

How the data were processed

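CircRNAs were measured by RNA sequencing in livers of 6 PZH and 6 Control mice. Trizol extraction and a TruSeq RNA kit were used, per the labels' protocols. Trim Galore and STAR were used with GRCm38 (mm10), per the submitters' processing notes. The authors deposited 1 table of SRPBM, a normalized signal per back-splice junction. For the caller of circRNAs, its filters and the way SRPBM was computed, details were not given in the sources used here. Between 56.8% and 63.8% of a library's low values lay at whole steps, so whole reads were not recovered and no count model was used.

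Host genes, strands and exon numbers were assigned from GENCODE M21, with 1 transcript per gene, and 137 of 151 members have exon numbers. The 3870 circRNAs with signal in 6 or more of 12 libraries were tested with limma 3.58.1 (R 4.3.3, variance trend) on log2(SRPBM + 0.636), the pseudocount being the median of the libraries' smallest values, with Benjamini-Hochberg adjustment over all of them. On this scale the pseudocount shrinks changes of low circles, while an entry of 0 in some libraries can make a fold change larger than the ratio of the group means. Host sums were tested likewise, and shares by exact permutation. The procedure was tested on simulated data in which zeros came only from low counts. Entries of 0 in abundant circRNAs, such as those of Med15, were therefore not covered by it. Python 3.11.15, numpy 2.4.6, pandas 2.3.3, scipy 1.17.1 and matplotlib 3.10.9 were used.

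The members, lists and tests were chosen with earlier results of these data known. Named circles were the 10 with the highest mean, the 6 with the smallest p in each direction and the leading circle of each tested receptor. Other circles named in the text, and the zinc finger and LXXLL descriptions, were chosen after values were seen. Zinc fingers were matched as cysteines spaced by 2, 13 and 2 residues, then after 13 to 20 residues by 3 to 6, 9 and 2 residues; the last range was widened after a narrower one missed Ppara and Pparg. Splice-site dinucleotides and protein sequences were not analysed here. Results of some members are not reported here.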

Additional observations from a re-analysis of the deposited data

Results flagged for a closer look

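Among 64 groups of 6 values looked at, 1 had a library set apart from the others by Dixon's criterion, where chance gives about 5%. This was the Thrb circle of exons 5 to 7 in PZH livers. PZH replicate 2 was at 4.88 SRPBM, the next PZH liver at 1.33 SRPBM and the other 4 were listed at 0, so that the gap made up 0.727 of the range. In Control livers 5 of 6 were above 0, up to 2.20 SRPBM. The log2 fold change of this circle, -0.64, did not pass the test, and it ranged from -1.11 to -0.48 when each library was left out.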

How the results depend on the processing

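The count of members past the threshold stayed at 0 under every alternative but one: with no filter on low circRNAs it was 1 of 151, Med15 exons 2 to 4 (log2 fold change 1.80, adjusted p = 0.00413, limma). Its adjusted p ranged from 0.00413 to 0.919 over the alternatives, and the cause was not tested. Among the alternatives, the count of 0 from the exact rank-sum test is limited by the smallest p that test allows. Members with a log2 fold change above 0 numbered 19 of 29, and 6 of 9 when above 0 in all 12 libraries was required, 41 of 60 at 3 or more libraries and 91 of 151 with no filter, which test other numbers of circles. Leaving out each library in turn gave 11 to 19, the lowest being 11 of 26 without Control replicate 6 and the highest 19 of 27 without PZH replicate 5. It was 15 of 29 under quantile normalization and 13 of 25 with zeros as missing. Members at an unadjusted p under 0.05 numbered 0 to 2 over all settings.

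Directions turned as follows. Under quantile normalization the log2 fold change was -0.20 for Thrb exon 4, -0.0188 for Nr1h4 exons 4 to 8 and -0.0407 for Ncoa2 exons 3 to 4. With scaling to equal summed SRPBM it was -0.0032 for Thrb exon 4 and -0.0316 for Ncoa2 exons 3 to 4, which was -0.0255 with median-of-ratios scaling and -0.0055 with library weights. With zeros as missing it was -0.29 for Med13 exon 3 and 0.55 for Ppara exons 4 to 6, and by ranks Med13 exon 3 differed by -0.333 of a mean rank. The cause was not tested.

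Leaving out 1 library was examined for the 21 circles, 9 host sums and 6 leading shares that the naming rule took, and not for the other tested circles and genes. It turned the direction of 7 of these circles, with log2 fold changes of -0.29 to 0.74 (Med13 exon 3), -0.0705 to 0.12 (Ncoa2 exons 3 to 4), -0.28 to 0.0571 (Ncoa3 exons 5 to 8), -0.0283 to 0.22 (Ncoa6 exons 3 to 4), -0.58 to 0.0341 (Nr2c2 exons 3 to 5), -0.0232 to 0.12 (Thrb exon 4) and -0.0119 to 0.19 (Thrb exons 6 to 7). It did so for the host sums of Med13l (-0.0944 to 0.0526), Ncoa3 (-0.26 to 0.11), Ncoa6 (-0.0505 to 0.27), Ppara (-0.58 to 0.18) and Thrb (-0.0327 to 0.13). The difference in the leading share turned for Ncoa2 (-0.148 to 3.20 percentage points), Ncoa6 (-8.96 to 1.26), Nr1h4 (-0.359 to 1.38) and Thrb (-1.31 to 1.02). None of these passed the test.

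No pairing by the replicate numbers was seen. Each group's mean was subtracted per circRNA, and the deviations left in same-numbered libraries correlated at -0.122 to 0.0299 over 1089 circRNAs. With the numbers as a replicate block, 0 members passed and 19 of 29 lay above 0. The intervals of the rare circles span several log2 units, and the part of depth in this was not tested.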
